A study of Mus musculus with 2 samples.

Results

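Histone genes were followed in 2 single-cell RNA libraries of mouse microglia, the resident macrophages of the brain. The group was every row of the deposited gene tables whose symbol starts with Hist1h, Hist2h, Hist3h, Hist4h, H1f, H2af or H3f, which gave 85 of 27998 rows. Of these, 69 rows had Hist symbols and are called replication-linked here by symbol alone. Another 15 were histone variants and 1 was H3f3aos, a transcript antisense to H3f3a. Both libraries came from C57Bl6 mice with the genotype label CX3CR1 that had received cuprizone, a copper chelator that strips myelin, for 4 weeks. One library held sorted microglia of the medial and the other of the lateral corpus callosum, the white matter tract between the hemispheres. All cells were therefore from treated animals. The sources used here give neither the CX3CR1 allele nor the number of mice pooled nor the sorting gate. With 1 library per region there was no test of any difference, so ratios carry 95% intervals for counting error only and cells are not replicates.

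Nucleosomes wrap DNA around an octamer of the core histones H2A, H2B, H3 and H4, and the linker histone H1 sits where the DNA enters and leaves. Replication-linked histone genes lie in clusters, are known to be transcribed in S phase to package new DNA, and mostly give messenger RNAs that end in a conserved stem-loop in place of a poly(A) tail. Variant histones such as H3.3 and H2A.Z come from ordinary spliced, polyadenylated messages made through the whole cell cycle and replace the standard histones at chosen sites. Microglia in the adult brain divide rarely, and proliferation is a known part of their response to demyelination.

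A cell was a barcode with at least 2400 unique molecular identifiers (UMIs, each standing for 1 captured transcript molecule) of which at most 10% were mitochondrial. This gave 2131 medial cells with 23442512 UMIs and 2308 lateral cells with 23047682 UMIs, at medians of 10732 and 9694 UMIs per cell. The 12 microglia markers made up 297 and 299.7 (medial and lateral) of every 10000 UMIs, and each of the 11 lists of other cell types made up at most 1.14. Immediate early genes, which rise during tissue dissociation, took 0.890% of medial and 0.720% of lateral UMIs, and the part of this in the differences between the libraries was not tested. The libraries shared 7 cell barcodes.

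A set of reference sequences shows why single replication-linked genes are hard to count with transcript reads of 57 bases from a kit that primes on poly(A). The stretch shown first is coding sequence of Hist1h2ap, an H2A gene (GRCm38, chr13:21833229-21833285, minus strand, coding bases 191 to 247). All 57 of its bases occur unchanged in transcripts of 21 other annotated genes, 15 of them in the group described here, so a read within it cannot be assigned to 1 gene.
Hist1h2ap: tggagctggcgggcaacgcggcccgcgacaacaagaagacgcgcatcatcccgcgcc

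The stem-loop that ends replication-linked histone messages is shown next, in capitals, as read from GENCODE vM21 transcripts (GRCm38) with up to 5 bases on each side. Hist1h2ap (chr13:21833026-21833049, minus strand), Hist1h4h (chr13:23531453-23531478, plus strand), Hist1h4i (chr13:22040961-22040986, minus strand), Hist1h1c (chr13:23739507-23739532, plus strand), Hist1h1e (chr13:23621777-23621802, minus strand), Hist4h4 (chr6:136803993-136804018, minus strand) and H2afx (chr9:44335235-44335260, plus strand) were chosen because their annotated ends differ.
Hist1h2ap: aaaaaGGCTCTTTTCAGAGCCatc
Hist1h4h: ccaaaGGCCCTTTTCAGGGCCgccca
Hist1h4i: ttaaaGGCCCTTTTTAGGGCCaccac
Hist1h1c: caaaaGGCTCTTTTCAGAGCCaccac
Hist1h1e: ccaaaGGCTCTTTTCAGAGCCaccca
Hist4h4: acaaaGGCCCTTTTCAGGGCCcacaa
H2afx: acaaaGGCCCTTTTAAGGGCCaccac

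The annotated Hist1h2ap transcript stopped 3 bases past the stem-loop, and that of Hist1h4h stopped 46 bases past it. The transcript of Hist1h4i ran on for 330 bases, that of Hist1h1c for 840, that of Hist1h1e for 1153 and that of Hist4h4 for 2445. H2afx was the only variant row with the stem-loop, and its transcript ran on for 822 bases. A longer form can carry a poly(A) tail, which the library kit needs.

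Of the 69 replication-linked rows, 67 were in the annotation, 53 of them on chromosome 13, 11 on chromosome 3, 2 on chromosome 11 and 1 on chromosome 6. By annotated type, 65 were protein coding, 1 was a long noncoding RNA and 1 was the processed pseudogene Hist1h2al. The stem-loop was found in 42 of the 67, in 7 forms, of which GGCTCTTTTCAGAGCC was the most frequent with 24 genes. A row without a match need not lack the stem-loop. An annotated transcript that stops before it cannot show it, and the fixed pattern searched for would miss other forms. Some transcripts without a match were short, such as Hist1h2bl at 381 and Hist1h4k at 312 bases, but that of Hist2h2be had 2620 bases. Across all 55450 annotated genes, 58 (0.105%) held a match. Transcripts of 61 of the 67 had 1 exon. In 33 of the 67, over 50% of the 57-base windows also occurred in another gene, and none of the 15 variant rows passed that limit.

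Promoters are shown for a gene that was much higher in cycling cells (Hist1h1b) and for an abundant replication-linked gene that was less so (Hist1h1c). The third is that of the most abundant variant at least 2-fold higher in cycling cells in both libraries (H2afz). The 150 bases before the start of transcription are from RefSeq (GRCm38.p6), at chr13:21780626-21780775 (minus strand), chr13:23738657-23738806 (plus strand) and chr3:137864337-137864486 (plus strand). Capitals mark the CCAAT box, the TATA box, searched for as TATAAA, and the AC box known from H1 promoters, searched for as AAACACA, each on either strand and with any overlap.
Hist1h1b: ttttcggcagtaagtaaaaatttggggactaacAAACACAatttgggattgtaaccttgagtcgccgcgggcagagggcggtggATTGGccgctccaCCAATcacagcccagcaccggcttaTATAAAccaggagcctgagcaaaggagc
Hist1h1c: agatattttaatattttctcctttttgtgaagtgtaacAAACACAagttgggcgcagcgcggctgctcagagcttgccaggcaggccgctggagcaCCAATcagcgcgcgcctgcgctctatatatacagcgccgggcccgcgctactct
H2afz: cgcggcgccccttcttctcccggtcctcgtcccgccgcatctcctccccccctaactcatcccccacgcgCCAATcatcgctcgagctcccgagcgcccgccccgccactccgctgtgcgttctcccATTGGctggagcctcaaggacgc

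RefSeq promoters were matched for 61 replication-linked and 13 variant genes and searched over 250 bases. CCAAT, on either strand, was in 50 of the 61 (82.0%), in 8 of the 13 variant genes and in 37.5% of all 27025 genes with a promoter. It was in all 6 H1, all 17 H2A and all 16 H2B promoters, but in 3 of 12 H4 promoters. The octamer ATTTGCAT, known from H2B promoters, was in 14 of the 61 (23.0%), 7 of them H2A and 7 H2B, against 1.81% of all genes. TATAAA was in 29 of the 61 (47.5%) and in 14.3% of all genes. The AC box was in 5 of 6 H1 promoters and in 7.20% of all genes. A match describes the letters only. Hist1h1b and Hist1h1c both held the CCAAT and AC box letters, and their values across cells differed as given next.

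Variant histones made up most of the histone UMIs. The 15 variant rows summed to 5156 CPM (UMIs per 1000000 UMIs of the cells) in the medial and 5103 CPM in the lateral library. The 69 replication-linked rows summed to 327 and 344 CPM. A UMI counts 1 captured molecule whatever the transcript length, so these are levels of captured RNA and not of all histone RNA. Of the 85 rows, 76 had a UMI in cells, 38 had at least 30 UMIs over both libraries and 23 had at least 100, 15 of them replication-linked and 8 variant. The 9 rows without a UMI were 4 replication-linked and 5 variant rows. For a count of 0 the 1-sided 95% upper limit is about 3 UMIs, or 0.0645 CPM over both libraries. H3f3aos had 4 UMIs, all medial.

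**Figure D1:**
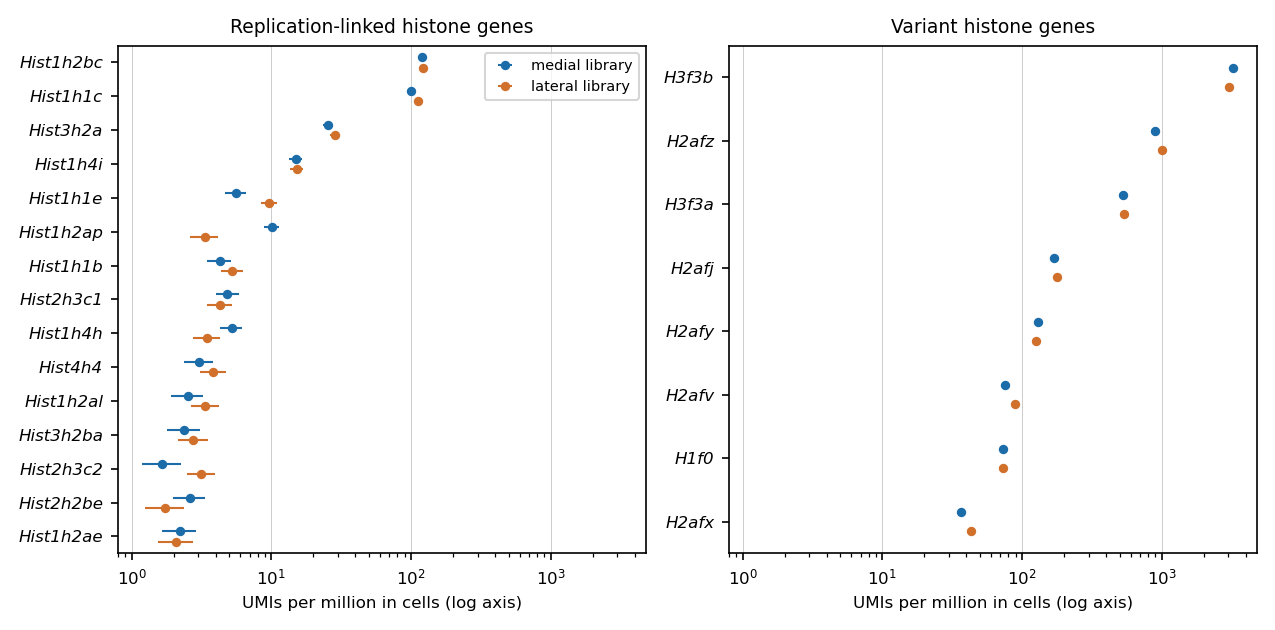
Level of each histone gene with at least 100 UMIs, in CPM on a log axis, for replication-linked genes (left) and variants (right); points are the medial and lateral libraries and bars are 95% Poisson intervals. H3f3b was at 3240.1 and 3049.8 CPM, and among the replication-linked genes Hist1h2bc and Hist1h1c stood above the other 13.

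H3.3 was the most abundant variant. Its messages come from H3f3b (chr11:116021912-116027962, minus strand) and H3f3a (chr1:180800832-180813943, minus strand), which encode the same protein. H3f3b was at 3240.1 CPM (3217 to 3263) in the medial and 3049.8 CPM (3027 to 3072) in the lateral library. H3f3a was at 532 and 534 CPM. The ratio of H3f3b to H3f3a UMIs was 6.09 (5.97 to 6.21) and 5.71 (5.61 to 5.82). H3f3a shared 25.9% of its windows with other genes and H3f3b shared 5.62%, all with predicted gene models.

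The H2A variants came next. H2afz (chr3:137864487-137866922, plus strand), which encodes H2A.Z, found at promoters and enhancers, was at 896 and 1006 CPM, medial and lateral. H2afv, which encodes a close H2A.Z paralogue, was at 75.8 and 89.9 CPM. H2afj was at 169 and 178 CPM. H2afy, which encodes macroH2A1, a variant with a large extra domain linked to silent chromatin, was at 130.1 and 126 CPM. H2afy2, which encodes macroH2A2, was at 1.83 and 1.61 CPM. H2afx, whose protein is phosphorylated beside DNA breaks, was at 36.7 and 43.1 CPM. Of these 6 genes, all but H2afy and H2afy2 were lower in the medial library, and for H2afz, H2afv, H2afx and H2afj the whole interval of the ratio lay below 1.

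Among linker variants, H1f0, which encodes H1.0, a form associated with cells that have left the cell cycle, was at 73.4 and 73.3 CPM. H1fx was near the detection limit, at 0.555 CPM from 13 UMIs and 1.48 CPM from 34 UMIs.

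Replication-linked UMIs came mainly from a pair of genes. Hist1h2bc, an H2B gene (chr13:23684199-23692908, plus strand, 2 exons), was at 121 CPM medial and 123 CPM lateral. Hist1h1c, which encodes linker histone H1.2 (chr13:23738808-23740367, plus strand), was at 100.2 and 113 CPM. Together they held 68.1% of the 15581 replication-linked UMIs. The other 67 rows summed to 106 and 108 CPM.

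Hist3h2a followed at 25.6 and 28.4 CPM and the H4 gene Hist1h4i at 14.97 and 15.23 CPM. Hist1h1e, which encodes H1.4, was at 5.59 and 9.68 CPM. Hist1h1b, which encodes H1.5, was at 4.27 and 5.25 CPM. The H3 gene Hist2h3c1 was at 4.86 and 4.30 CPM, but every window of it occurs in another gene model, and the H4 genes Hist1h4h and Hist4h4 were at 5.20 and 3.47 CPM and at 3.03 and 3.86 CPM. Hist1h2al, annotated as a processed pseudogene in GENCODE vM21, was at 2.52 and 3.38 CPM. Hist3h2ba was at 2.39 and 2.78 CPM, below its 7.77 and 12.99 CPM in free RNA, taken from barcodes under 100 UMIs.

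By family, H2B rows held 39.6% and H1 rows 36.2% of the replication-linked UMIs, H2A rows 13.3%, H4 rows 7.88% and H3 rows 2.94%. The median replication-linked row had 15 UMIs over both libraries and the median variant row 1854.

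Among rows with a stem-loop, those whose transcripts ended up to 100 bases past it differed in level from those that ran on. The 21 rows of the first kind had 824 UMIs in all, a median of 14 and at most 313 (Hist1h2ap). The 21 rows that ran on had 8407 UMIs and a median of 62, and Hist1h1c alone gave 2348 medial and 2602 lateral UMIs of that sum. The remaining 27 rows, without a stem-loop match or not in the annotation, had 6350 UMIs, most of them from Hist1h2bc. Rows of the first kind also tended to share more of their windows with other genes, such as 93.0% for Hist1h2ap against 7.78% for Hist1h1c. The part of shared windows in the difference was not tested. The limit of 100 bases was chosen after the values were seen, and no test was made.

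**Figure D2:**
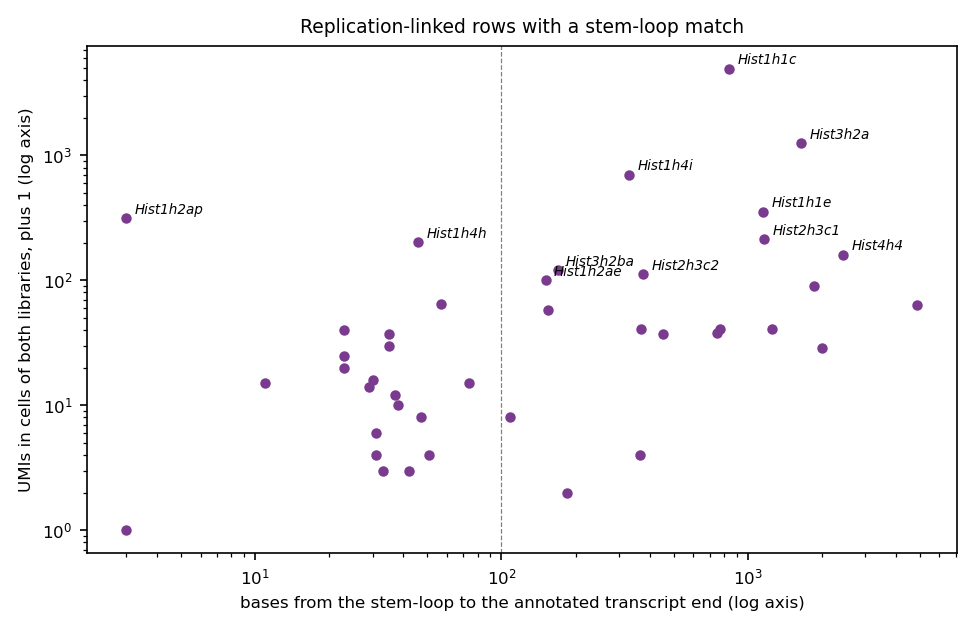
Replication-linked rows with a stem-loop match: bases from the stem-loop to the annotated transcript end (log axis) against UMIs in cells of both libraries plus 1 (log axis), 1 point per row, with rows of at least 100 UMIs named and a dashed line at 100 bases. Of the 21 rows left of the line, Hist1h2ap and Hist1h4h reached 100 UMIs.

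The comparison of regions asked whether histone RNA differed between medial and lateral microglia after 4 weeks of cuprizone. As sums, both kinds of histone were close in the libraries. Replication-linked rows were at 327 CPM (320 to 334) medial and 344 CPM (336 to 351) lateral, a log2 ratio of medial over lateral of -0.072 (-0.12 to -0.027). Variant rows had a log2 ratio of 0.015 (0.0031 to 0.026), with the median gene of all 9844 genes with at least 100 UMIs at -0.037. Both sums depend on their most abundant genes: without H3f3a and H3f3b the variant log2 ratio was -0.14.

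The libraries also differed in their share of cycling cells, 13.7% (12.3 to 15.2) medial and 16.3% (14.8 to 17.9) lateral. Among cells not called cycling, the replication-linked log2 ratio was 0.022, on the other side of 0, and the variant one 0.056.

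Single genes were counted as different when they had at least 100 UMIs and a log2 ratio of at least 0.32 in size. Of the 23 histone genes with at least 100 UMIs, 3 were higher in the medial library, where 5.3% of all genes were, and 4 were higher in the lateral library, where 4.49% of all genes were. All 7 were replication-linked genes with 101 to 354 UMIs, so a small count of molecules stands behind each. None of the 8 variants passed. Their log2 ratios ran from -0.24 (H2afv) to 0.087 (H3f3b). The median log2 ratio was -0.15 over the 15 replication-linked genes and -0.040 over the 8 variants.

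Hist1h2ap had 236 medial UMIs in 113 cells and 77 lateral UMIs in 54 cells. It was at 10.1 CPM (8.82 to 11.4) medial and 3.34 CPM (2.64 to 4.18) lateral, a log2 ratio of 1.59 (1.21 to 1.98). The 10 highest cells held 52 of the medial and 25 of the lateral UMIs. The other 13 Hist1h2a rows together were at 8.19 and 8.11 CPM, a log2 ratio of 0.014 (-0.28 to 0.31). Hist1h2ap shares 93.0% of its windows with other genes, all of those with Hist1h2ao, which had 3 UMIs, so which copy was counted is uncertain.

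Hist1h1e went the other way, with 131 medial and 223 lateral UMIs and a log2 ratio of -0.79 (-1.11 to -0.47). Its free RNA level was 2.97 CPM (1.58 to 5.08) medial and 2.41 CPM (1.15 to 4.42) lateral. Hist1h1e shared 31.0% of its windows with other genes, and its transcript ends within the annotated span of Hist1h2be on the same strand. Hist2h3c2, an H3 gene, had 39 medial and 73 lateral UMIs, a log2 ratio of -0.93 (-1.53 to -0.35), with 63.3% of windows shared. Hist1h4h had 122 and 80 UMIs, a log2 ratio of 0.58 (0.17 to 1.01), with 44.9% of windows shared. Hist4h4, Hist1h2al and Hist2h2be passed the size limit with intervals that included a ratio of 1.

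**Figure D3:**
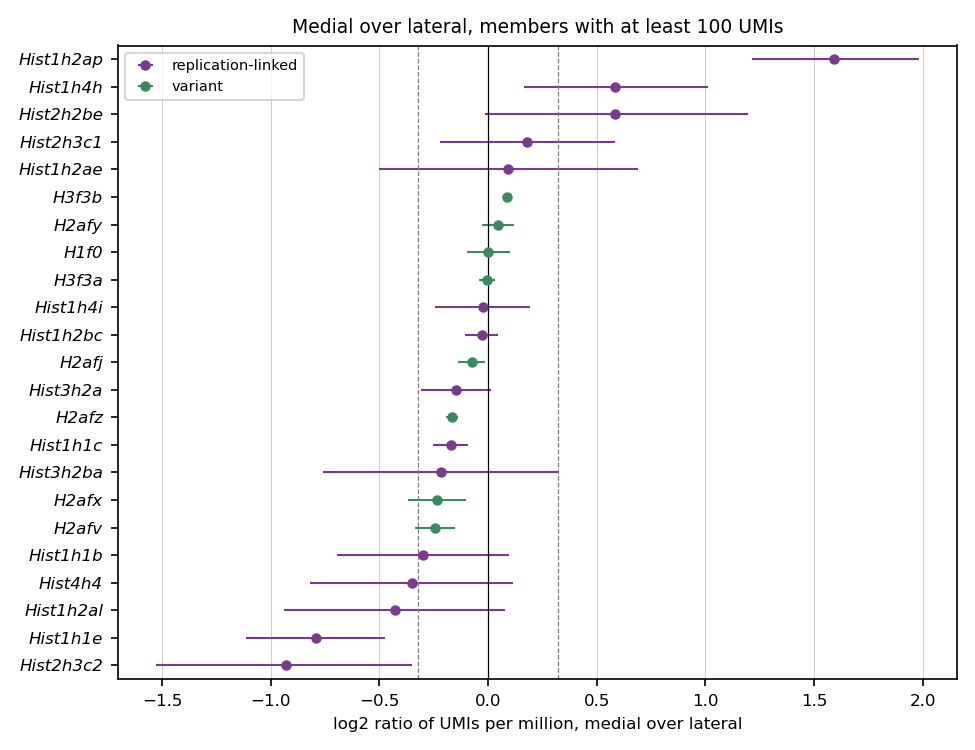
Log2 ratio of CPM, medial over lateral, for the 23 histone genes with at least 100 UMIs, with 95% conditional binomial intervals; dashed lines mark a log2 ratio of 0.32 in either direction. Every variant lies between the lines, and Hist1h2ap at 1.59 and Hist2h3c2 at -0.93 are the ends.

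H1 rows of the replication-linked kind were at 112 CPM medial and 131 CPM lateral, a log2 ratio of -0.23 (-0.31 to -0.16). They were at 160 and 237 CPM in cycling cells but at 102 and 105 CPM in cells not called cycling. H2A rows were at 46.9 and 42.5 CPM, a log2 ratio of 0.14 (0.017 to 0.27) of which Hist1h2ap alone held 10.1 and 3.34 CPM. The intervals of the H2B, H3 and H4 sums included a ratio of 1.

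Cycling cells were set against the others because replication-linked histones are known as genes of dividing cells. A cell counted as cycling when a random draw of 2400 of its UMIs included 3 or more from 63 S and G2/M genes, spread over 2 or more of these genes; no histone was among the 63. A cycling cell with more S than G2/M UMIs was called S-like and the rest G2/M-like. There were 292 medial cycling cells (59 S-like, 233 G2/M-like) and 377 lateral ones (78 S-like, 299 G2/M-like). Of these, 64 and 60 were at exactly 3 class UMIs, and 167 and 164 of the 1839 and 1931 other cells were at exactly 2. Microglia markers were at 276 and 280 per 10000 UMIs in cycling and at 301 and 305 in other cells, medial and lateral. Their part in the class differences was not tested.

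Both kinds of histone were higher in cycling cells. Replication-linked rows were at 475 CPM in cycling and 298 CPM in other cells of the medial library, a log2 ratio of 0.67 (0.60 to 0.75). In the lateral library they were at 544 and 293 CPM, a log2 ratio of 0.89 (0.82 to 0.96). Variant rows had log2 ratios of 0.70 (0.68 to 0.72) and 0.74 (0.72 to 0.75). The median over all genes with at least 100 UMIs was 0.098 and 0.11.

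Counted gene by gene, 9 of the 23 were at least 2-fold higher in cycling cells in both libraries, where 4.72% of all genes were, and 0 were at least 2-fold lower, where 0.245% were. The 9 were 6 of 15 replication-linked genes, with the pseudogene row Hist1h2al among them, and 3 of 8 variants. Median log2 ratios were 0.57 medial and 0.81 lateral over the replication-linked genes, and 0.74 and 0.77 over the variants.

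Hist1h2ap and Hist1h1b were nearly confined to cycling cells. Hist1h1b was at 23.7 CPM in cycling and 0.459 CPM in other cells of the medial library, and at 24.6 and 0.380 CPM in the lateral library. Its log2 ratios were 5.69 (4.70 to 6.87) and 6.02 (4.93 to 7.37). Cycling cells, with 16.4% and 20.1% of all UMIs, held 91.0% and 94.2% of its UMIs. None of its windows occurs in another gene.

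Hist1h2ap was at 57.6 and 0.765 CPM in the medial and at 15.6 and 0.271 CPM in the lateral library, log2 ratios of 6.24 (5.48 to 7.10) and 5.84 (4.55 to 7.51). The intervals of its fold between classes overlapped, while its level in cycling cells was lower in the lateral library. The folds rest on 15 medial and 5 lateral UMIs in other cells, so a difference between them could be missed. At 2400 UMIs per cell it was seen in 12.3% (8.79 to 16.7) of medial and 2.39% (1.10 to 4.48) of lateral cycling cells, and in 33.6% and 12.997% without thinning. Other cells held it in 0.0544% and 0% when thinned, and in 0.816% and 0.259% without thinning. No cell type that should lack the gene was at hand as background, so the other cells serve as the reference.

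The pseudogene row Hist1h2al had log2 ratios of 3.21 and 4.19, Hist1h2ae 2.47 and 2.11, Hist1h1e 2.24 and 2.53, and Hist1h4i 1.07 and 1.49. In this order, 61.8%, 40.4%, 31.0% and 27.1% of their windows occur in other genes, so the copy counted is uncertain in part. For Hist1h4i the medial value of 1.07 is just past the limit, with an interval of 0.72 to 1.40. Below 100 UMIs, 50 replication-linked rows with 1 to 89 UMIs held 978 UMIs together, and 45 of them had a higher CPM in cycling cells over both libraries. Of all 6545 genes with 1 to 99 UMIs, 44.5% did, and these were not matched to the 50 rows on UMI count. Their sum was at 61.8 and 13.1 CPM in medial cycling and other cells, and at 56.0 and 12.2 CPM in lateral ones.

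Among variants, the H2A genes H2afx, H2afv and H2afz passed 2-fold in both libraries. H2afx was at 142 CPM in cycling and 16.01 CPM in other cells of the medial library, and at 148 and 16.7 CPM in the lateral library, a log2 ratio of 3.15 in each (2.95 to 3.36 and 2.95 to 3.35). H2afv was at 229 and 45.9 CPM medial and at 235 and 53.4 CPM lateral, log2 ratios of 2.32 and 2.14. H2afz was at 2290 and 623 CPM medial and at 2351 and 668 CPM lateral, log2 ratios of 1.88 (1.84 to 1.92) and 1.81 (1.78 to 1.85).

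The ratio of H2afz to H2afv UMIs was lower in cycling cells, at 10.0 (9.33 to 10.7) against 13.6 (12.7 to 14.5) in other cells of the medial library. In the lateral library it was 9.99 (9.39 to 10.6) against 12.53 (11.7 to 13.4).

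The remaining variants moved less. H1f0 had log2 ratios of 0.80 and 0.86, H2afy of 0.68 and 0.69, H3f3a of 0.41 and 0.32, and H3f3b of 0.28 and 0.34. H2afj was slightly lower in cycling cells, at -0.16 (-0.29 to -0.033) and -0.12 (-0.24 to -0.0075). H2afy2 and H1fx had too few UMIs to place.

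**Figure D4:**
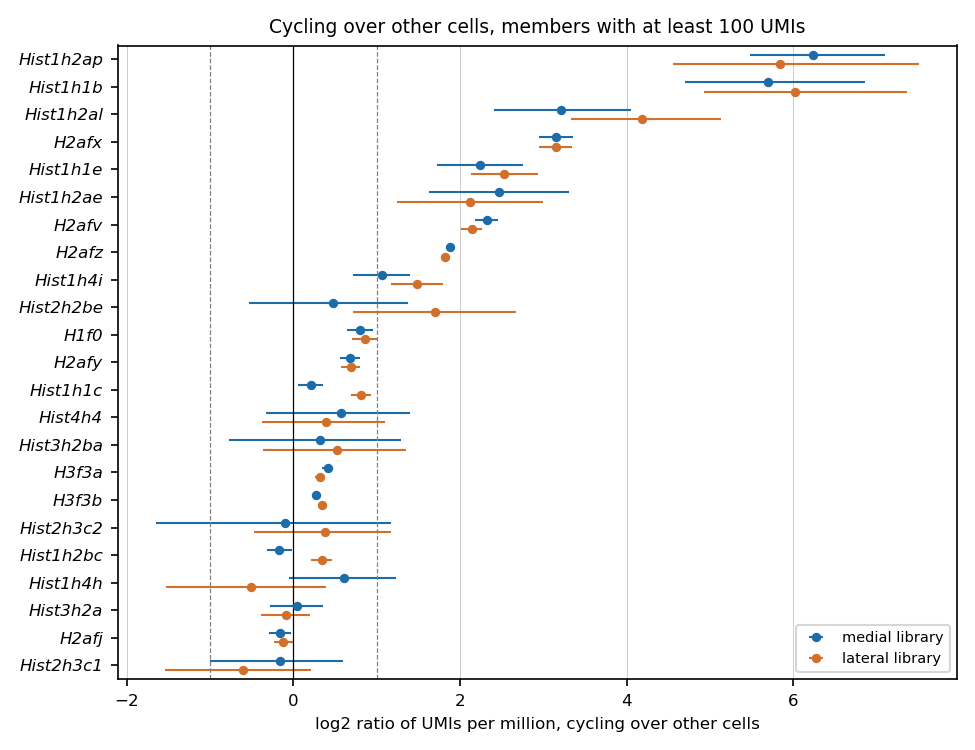
Log2 ratio of CPM, cycling over other cells, for the 23 histone genes with at least 100 UMIs; points are the medial and lateral libraries, bars are 95% conditional binomial intervals and dashed lines mark 2-fold. Hist1h2ap, Hist1h1b, Hist1h2al and H2afx lie past a log2 ratio of 3 in both libraries, and Hist1h2bc lies on opposite sides of 0.

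The most abundant replication-linked genes did not follow that pattern. Hist1h2bc was at 109 CPM in cycling and 123 CPM in other cells of the medial library, and at 148 and 117 CPM in the lateral library. Its log2 ratios were -0.17 (-0.32 to -0.018) and 0.34 (0.21 to 0.47). The medial value was 0.016 when each cell counted alike, so its direction depends on how cells are weighted. Hist1h1c had log2 ratios of 0.21 (0.055 to 0.36) and 0.81 (0.69 to 0.93), and the medial one was -0.098 when a cycling cell needed 5 class UMIs. Without these genes the replication-linked log2 ratios rose from 0.67 to 1.71 and from 0.89 to 1.52. Hist3h2a, Hist2h3c1, Hist1h4h, Hist4h4, Hist3h2ba and Hist2h3c2 had intervals that included a ratio of 1 in both libraries.

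Within the cycling cells, both histone sums were higher in G2/M-like than in S-like cells. The classes are not clean phases of the cell cycle. Rrm2, an S gene of the class rule, was at 162 and 152 CPM in S-like cells, medial and lateral, and at 163 and 157 CPM in G2/M-like cells. The order of the classes therefore does not place histone RNA in a phase. Replication-linked rows were at 254 CPM in S-like and 537 CPM in G2/M-like cells of the medial library, a log2 ratio of S over G2/M of -1.08 (-1.29 to -0.87). In the lateral library they were at 157 and 654 CPM, a log2 ratio of -2.06 (-2.30 to -1.83). Variant rows had log2 ratios of -0.53 (-0.57 to -0.48) and -0.69 (-0.74 to -0.65). Not every gene had this order. Hist4h4 was at 10.8 CPM in S-like and 2.33 CPM in G2/M-like cells of the medial library, from 9 and 7 UMIs, a log2 ratio of 2.21 (0.62 to 3.87), and at 1.95 and 5.55 CPM in the lateral library (-4.65 to 0.53). The medial sum of the H4 rows had a log2 ratio of -0.22 (-0.79 to 0.31). The size of these values depends on the class rule: with the class taken from unthinned cells the replication-linked values were -1.60 and -2.39.

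Replication-linked rows took a smaller share of the UMIs in S-like cells than in cells not called cycling. The log2 ratios of CPM were -0.23 (-0.43 to -0.031) and -0.90 (-1.14 to -0.68). These are shares and not amounts per cell, since S-like cells had medians of 14826 and 12316 UMIs against 10502 and 9418 in the other cells. Without Hist1h2bc and Hist1h1c the other rows were at 146 and 77.1 CPM in S-like against 77.3 and 78.4 CPM in other cells. Hist1h2bc was at 59.9 and 40.0 CPM (medial and lateral) in S-like cells, 123 and 179 CPM in G2/M-like cells, and 123 and 117 CPM in other cells. Hist1h1c was at 47.9 and 40.0 CPM in S-like, 131 and 209 CPM in G2/M-like, and 97.7 and 98.1 CPM in other cells.

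Hist3h2a was also lower in S-like cells, at 14.4 and 4.88 CPM from 12 and 5 UMIs, against 25.5 and 28.8 CPM in other cells, log2 ratios of -0.83 (-1.79 to -0.0087) and -2.56 (-4.19 to -1.33).

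H1f0 showed the same order, at 49.1 and 31.2 CPM in S-like, 132 and 138 CPM in G2/M-like, and 65.4 and 63.1 CPM in other cells. For these 4 genes S-like cells were lowest in both libraries. The interval of S-like over other cells excluded a ratio of 1, except for H1f0 in the medial library (-0.90 to 0.035).

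Genes nearly confined to cycling cells were above other cells in both classes but still highest in G2/M-like cells. Hist1h1b was at 9.59 and 10.7 CPM in S-like and 27.7 and 28.6 CPM in G2/M-like cells. Hist1h2ap was at 22.8 and 5.85 CPM in S-like and 67.3 and 18.3 CPM in G2/M-like cells. The S-like values rest on 8 and 11 UMIs for Hist1h1b and on 19 and 6 UMIs for Hist1h2ap. H2afx and H2afz had the same order without being confined to cycling cells. H2afx was at 67.1 and 54.6 CPM in S-like and 163 and 175 CPM in G2/M-like cells, and H2afz was at 1371 and 1320 CPM against 2545 and 2644 CPM.

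H3f3b was at 3063 and 2607 CPM in S-like against 3132 and 2895 CPM in other cells, log2 ratios of -0.032 (-0.090 to 0.025) and -0.15 (-0.21 to -0.095), and was at 3994 and 3966 CPM in G2/M-like cells. Its ratio to H3f3a was lowest in S-like cells, at 5.03 (4.57 to 5.55) and 4.37 (4.00 to 4.78). H2afj and H2afy had intervals of S-like over G2/M-like that included a ratio of 1 in both libraries.

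**Figure D5:**
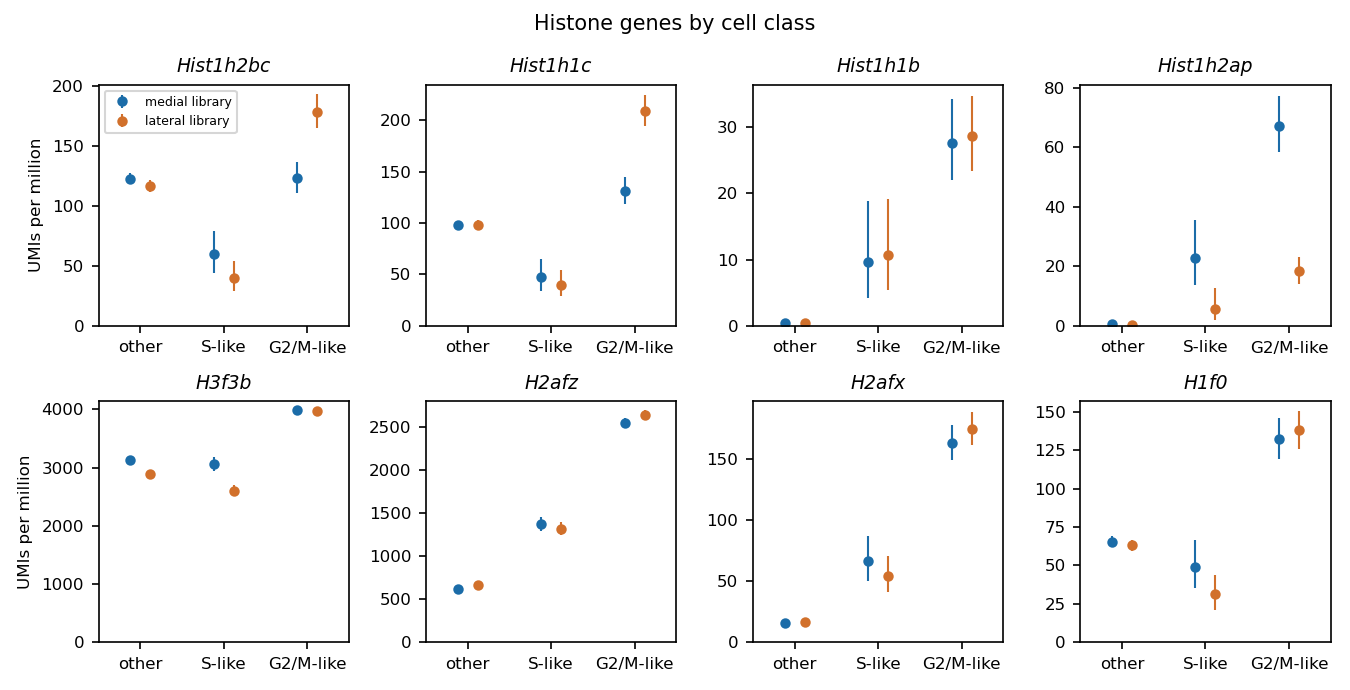
CPM of 8 histone genes in other, S-like and G2/M-like cells of the medial and lateral libraries, with 95% Poisson intervals and axes that start at 0. Hist1h2bc, Hist1h1c and H1f0 are lowest in S-like cells, whereas Hist1h1b, Hist1h2ap, H2afz and H2afx rise from other to S-like to G2/M-like cells.

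Histone messages of the stem-loop kind are handled by proteins that bind and cut them. Of 12 such genes with at least 100 UMIs, 4 were at least 2-fold higher in cycling cells in both libraries, where 4.72% of all genes were. Between libraries 0 passed the limit, where 5.3% of all genes were medial higher and 4.49% lateral higher. No gene of this list or of the chaperone lists that follow was among the 63 genes that set the classes. Slbp, which encodes the stem-loop binding protein, was at 144 CPM in cycling and 50.3 CPM in other cells of the medial library, log2 ratios of 1.52 and 1.41, medial and lateral. Unlike both histone sums, it was higher in S-like cells (215 and 184 CPM) than in G2/M-like cells (125 and 124 CPM). Casp8ap2, needed for histone transcription and processing, had log2 ratios of 1.35 and 1.66. Eri1, an exonuclease that acts on histone message ends, had 1.09 and 1.254. Lsm11, a part of the U7 particle that guides the cut, had 1.11 and 1.06. Srrt, which encodes a cap-binding partner, was within the limit at 0.70 and 0.90.

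Chaperones carry new histones to replicated DNA. Of 11 genes of this kind, 8 were at least 2-fold higher in cycling cells in both libraries, against the same 4.72% of all genes. Asf1b, which hands H3 and H4 on, was highest, at 70.9 and 3.67 CPM in medial cycling and other cells, with log2 ratios of 4.27 and 3.96. Chaf1a and Chaf1b, subunits of chromatin assembly factor 1, had log2 ratios of 3.40 and 2.74 and of 2.58 and 2.53. Mcm2, a helicase subunit that binds H3 and H4, had 2.05 and 1.87, the storage chaperone Nasp 1.72 and 1.71, and the acetyltransferase Hat1 1.49 and 1.68.

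Ssrp1, a FACT subunit, had 1.23 and 1.12 and Rbbp7 1.20 and 1.20, while Rbbp4 at 0.67 and 0.56 was within the limit. Hat1 was at 119 and 133 CPM in S-like and 69.7 and 73.0 CPM in G2/M-like cells, and Mcm2 at 55.1 and 69.3 CPM against 32.0 and 30.3 CPM, the opposite order to both histone sums. Not all handling genes had that order in both libraries. Asf1b was at 68.3 and 80.0 CPM in S-like against 71.7 and 73.9 CPM in G2/M-like cells, and Casp8ap2 at 18.0 and 42.9 CPM against 26.3 and 22.5 CPM. Asf1b was the 1 gene of the list past the limit between libraries, at 14.7 CPM medial and 19.0 CPM lateral, a log2 ratio of -0.37 (-0.58 to -0.16). Within cycling cells it was at 70.9 and 75.2 CPM, and within other cells at 3.67 and 4.83 CPM. The part of the larger lateral share of cycling cells in the difference was not tested.

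Variant histones have chaperones of their own. Of 18 genes on this list, which also holds the centromeric H3 variant Cenpa, 3 were at least 2-fold higher in cycling cells in both libraries, again against 4.72% of all genes. Cenpa had log2 ratios of 3.25 and 3.46, its chaperone Hjurp 2.71 and 3.16, and Anp32e, which removes H2A.Z, 1.30 and 1.27. Cenpa was at 34.8 and 26.3 CPM in S-like and 237 and 288 CPM in G2/M-like cells.

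Cenpa and Hjurp were also the 2 genes past the limit between libraries, both higher in the lateral one, with log2 ratios of -0.37 (-0.49 to -0.26) and -0.68 (-0.91 to -0.46). Medial and lateral, Cenpa was at 193 and 230 CPM in cycling and 20.2 and 21.0 CPM in other cells. Hjurp was at 39.4 and 63.6 CPM in cycling and 6.02 and 7.11 CPM in other cells. The abundant nucleolar chaperones Npm1 and Ncl were at log2 ratios of -0.019 and -0.034 and of 0.33 and 0.38 between the classes.

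In free RNA the replication-linked rows were at 376 CPM medial and 365 CPM lateral, above their level in cells, and the variant rows at 6003 and 5901 CPM. Hist1h2bc was at 158 and 151 CPM there. Hist1h1b was at 2.06 CPM (0.941 to 3.90) and 0.722 CPM (0.149 to 2.11), and Hist1h2ap at 1.83 CPM (0.789 to 3.60) and 0.722 CPM (0.149 to 2.11). The part of free RNA in the few UMIs of these genes in cells not called cycling was not tested.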

How the data were processed

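The authors deposited whole-number UMI counts per gene and barcode for 2 libraries, with no normalization. The submitters' processing notes name mm10, STAR and Cell Ranger 2.0.1, and the sources used here name no annotation release. Sample groups came from the labels. Total counts were 28660496 (medial) and 27955414 (lateral).

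Cells had at least 2400 UMIs and at most 10% mitochondrial UMIs; doublets were not called, and cells above 3 times the library median (3 medial, 4 lateral) were left out as an alternative. UMIs were summed per library and cell class and divided by that class's total (CPM). Intervals are exact Poisson (levels), exact conditional binomial (ratios) and Clopper-Pearson (shares), at 95%, for counting error only. Ratios and intervals were tested on simulated data. A gene needed 100 UMIs over both libraries; limits were 1.25-fold between libraries and 2-fold, in both, between classes, and no p-values were computed. Each cell was thinned once, with a fixed seed.

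Genes named are variants with at least 30 UMIs, the 12 Hist rows with most UMIs, members past a limit and, per list of handling genes, the 2 most abundant and those past a limit. Members, lists and tests were chosen with earlier results of these data known. Transcripts and positions are from GENCODE vM21, promoters from RefSeq. Python 3.11.15, numpy 2.4.6, scipy 1.17.1, pandas 2.3.3 and matplotlib 3.10.9 were used.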

Additional observations from a re-analysis of the deposited data

Results flagged for a closer look

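Hist1h2bc, an H2B gene, was lower in cycling than in other cells of the medial library, with a log2 ratio of -0.17 (-0.32 to -0.018), and higher in the lateral library, at 0.34 (0.21 to 0.47). It drew attention because the libraries went opposite ways with intervals that did not include 0. The difference between the libraries was not tested, since each region has 1 library. In the medial library the value was 0.016 when each cell counted alike and -0.51 when a cycling cell needed 5 class UMIs.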

How the results depend on the processing

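Values are log2 ratios, medial before lateral library where a pair is given; no test was made under any setting. Of 110 values of the summed sets and counts under alternatives, 68 stayed within their interval (counts, within 1.5 times), 40 moved further and 2 changed sign; of 248 values of single genes, 224, 22 and 2 did so. The cause of each change was not tested.

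Medial over lateral, the replication-linked sum was 0.022 in cells not called cycling (sign changed), -0.0099 when each cell counted alike and -0.022 without Hist1h2bc and Hist1h1c. The variant sum was -0.14 without H3f3a and H3f3b (sign changed), 0.056 in cells not called cycling, 0.0029 when each cell counted alike and 0.052 when centred on the median gene (-0.037). The 7 of 23 genes past the limit (9.79% of all genes, either direction) became 3 of 16 in cells not called cycling (9.39%), 17 of 38 at 30 UMIs or more (15.2%), 42 of 67 at 1 UMI or more in each library (26.5%), and 3 of 23 at 1.5-fold (2.15%). H3f3a, H1f0, Hist1h1b, Hist1h2ae, Hist1h2al, Hist1h2bc and Hist1h4i, all with intervals that included 0, changed sign under at least 1 alternative.

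Cycling over other cells, the replication-linked sum was 0.58 and 0.79 when centred, 0.42 and 0.80 without rows that share over 50% of windows, 1.71 and 1.52 without Hist1h2bc and Hist1h1c, and 0.98 in the lateral library with the class from unthinned cells. The variant sum was 0.63 and 0.69 with cells alike, 0.74 and 0.82 with unthinned classes, 0.81 and 0.85 with 5 class UMIs, 0.60 and 0.63 when centred, 1.29 and 1.255 without H3f3b, and 0.78 in the lateral library with another seed. The 9 of 23 genes past 2-fold became 18 of 38 at 30 UMIs or more (6.17% of all genes, either direction). In the medial library Hist1h2bc changed sign to 0.016 with cells alike and Hist1h1c to -0.098 with 5 class UMIs.

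S-like over G2/M-like, the replication-linked sum was -1.60 and -2.39 with unthinned classes, -1.42 in the medial library with another seed, and in the lateral library -1.67 with 5 class UMIs and -1.79 without Hist1h2bc and Hist1h1c. The variant sum was -0.68 and -0.78 with unthinned classes, -0.69 and -0.78 without H3f3b, -0.58 in the medial library with another seed, and in the lateral library -0.65 with cells alike and -0.62 when centred. The direction was the same under every alternative run.

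The alternatives without Hist1h2bc and Hist1h1c, without Hist1h2ap, without H3f3b, with another seed, and those for classes of single genes were chosen after seeing the data. No paired analysis was possible because each region has 1 library. With 1 library per region, region and library cannot be told apart, and 59 and 78 S-like cells limit the S-like values.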
